A study of Mus musculus with 4 samples.

Results

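Fragments of the transfer RNAs for the aromatic amino acids, tRNA-Phe, tRNA-Trp and tRNA-Tyr, were followed in small RNA sequencing of mouse bone marrow. The members are all rows of the coverage tables deposited for these 3 tRNA families, on the forward strand, which are 215 of the 1698 positions and 3 of the 23 families of the series. Small RNA had been prepared from total RNA of bone marrow of mice of the C57BL/6 strain, 8 days after birth, giving 2 libraries from wild type (WT) and 2 from the genotype labelled Dnmt2-/- (Dnmt2 KO), so that tissue, strain and age were shared by both groups. The labels do not say how the allele was made, whether animals were pooled, or whether replicates came from separate animals, and the spread behind each p-value below is thus that between libraries, which may be technical. The tables hold tRNA coverage alone, so the labelled tissue could not be checked against marker genes, and the state of the Dnmt2 gene could not be checked either.

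A tRNA brings one amino acid to the ribosome and folds into an acceptor stem, a D arm, an anticodon arm and a T arm. Ribonucleases cut mature or precursor tRNAs into fragments that are named after the side of the molecule they keep, 5′ or 3′, and cuts fall mainly in the exposed loops. Dnmt2 is an RNA cytosine methyltransferase that modifies the anticodon loop of tRNA-Asp, tRNA-Gly-GCC and tRNA-Val-AAC and thereby lowers their cleavage under stress. The 3 aromatic tRNAs are not among these known substrates and carry other marks next to or in the anticodon, namely wybutosine derivatives in tRNA-Phe, a methylated wobble cytidine in tRNA-Trp and a glycosylated queuosine in tRNA-Tyr. Genes of tRNA-Tyr also hold an intron that is removed before the tRNA is used. RefSeq (GRCm38.p6) names 7 mouse genes for tRNA-Phe, 8 for tRNA-Trp and 10 for tRNA-Tyr, each group with 1 anticodon (GAA, CCA and GTA), so that unlike many other families these tables each cover 1 isoacceptor if the authors' gene set was alike.

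The 3 families were thinly covered. Coverage was deposited as a normalized signal, and the values of a library were whole multiples of its smallest positive value, which is read here as 1 read over 1 position. On that scale, tRNA-Phe had 143 and 37 reads at its highest position in WT, replicates 1 and 2, against 133 and 32 in Dnmt2 KO. Pairs of values below keep this order, replicate 1 first. The highest position of tRNA-Trp held 189 and 182 reads in WT, against 78 and 248 in Dnmt2 KO. For tRNA-Tyr these were 249 and 387 reads, and 126 and 357 reads. By mean depth these were the third, the fourth and the fifth lowest of 23 families, above the suppressor family Sup (1 to 5 reads) and Asn (62 to 104 reads), whereas GlyGCC reached 236284 reads. The sum of the highest positions over all families was 220277 to 423186 reads per library.

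**Figure D1:**
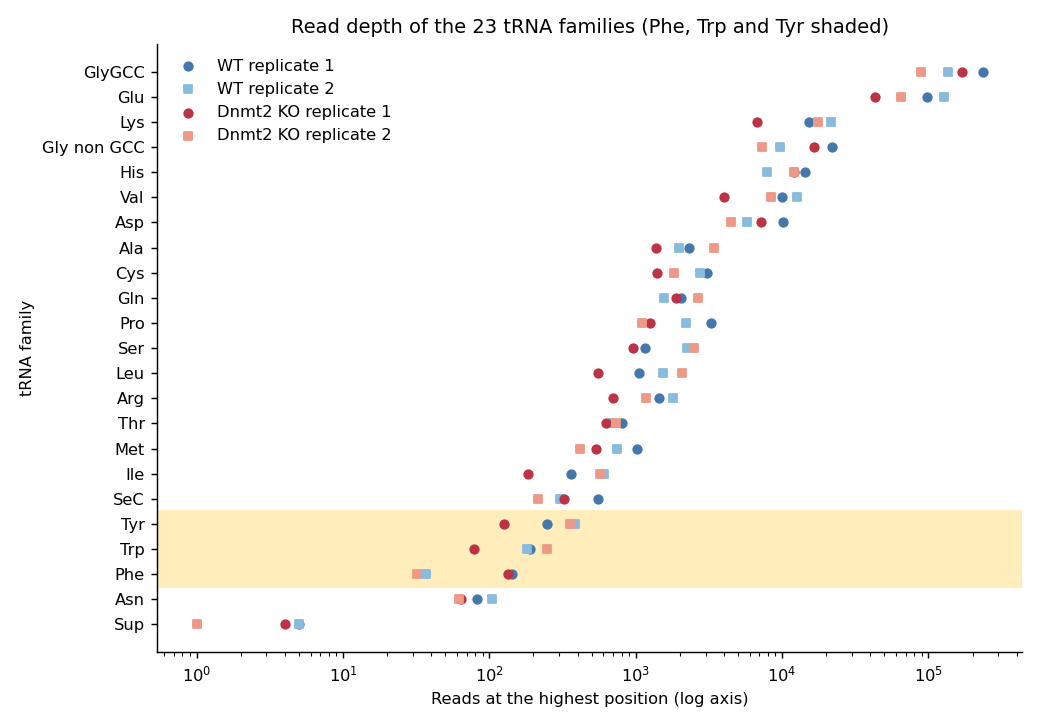
Reads at the highest position of each of 23 tRNA families (log axis), one point per library, families ordered by their mean. The shaded families Phe, Trp and Tyr lie between 32 and 387 reads, near the low end of a range that reaches 236284 reads in GlyGCC.

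Together the 3 families made up 0.113% and 0.159% of all tRNA coverage in WT, against 0.110% and 0.242% in Dnmt2 KO. In bulk tissue, fewer cells of a type and less RNA per cell cannot be told apart. Summing every rise of coverage from one position to the next gives a lower bound on the number of reads, called net reads below. tRNA-Phe had 158 and 50 net reads in WT and 143 and 48 in Dnmt2 KO, tRNA-Trp had 245 and 265, and 130 and 274, and tRNA-Tyr had 475 and 621, and 238 and 541. A count of 0 in such a library allows a share of up to 6.25% of the net reads of tRNA-Phe in Dnmt2 KO replicate 2 and up to 0.483% of those of tRNA-Tyr in WT replicate 2 (3 reads). Coverage divided by net reads is an upper bound on the mean stretch that a read covered. It lay between 16.5 and 19.5 positions in these 3 families in every library, so their reads were much shorter than the tables of 72, 71 and 72 positions. All exact (Clopper-Pearson) 95% intervals and floors of 3 reads reflect counting error alone, because reads lacking molecular identifiers can stem from one molecule.

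The highest coverage of tRNA-Phe was an internal block 3′ of the anticodon. Position 41 held 25 and 10 reads in WT and 13 and 3 in Dnmt2 KO, and position 42 held 91, 22, 101 and 21 reads in the same order. This step at position 42 was the largest start of fragments in each of the 4 libraries, with 41.8% of the net reads in WT replicate 1 (95% interval 33.99 to 49.9), 24.0% in the other WT library (13.1 to 38.2), and 61.5% (53.0 to 69.5) and 37.5% (24.0 to 52.6) in Dnmt2 KO. The second largest start was position 43 in the libraries numbered 1, with 28 reads in WT and 13 in Dnmt2 KO, and in those numbered 2 it was position 2 in WT (4 reads) and position 52 in Dnmt2 KO (6 reads). Coverage then stayed on a plateau, peaked at position 54 in 3 libraries and at positions 52 to 54 in Dnmt2 KO replicate 2, and fell over positions 55 to 57. In the libraries numbered 1 the largest ends were sharp, with 49 reads ending at position 55 and 33 at position 56 in WT, and 61 and 37 at the same positions in Dnmt2 KO. In the libraries numbered 2 the fall was shallow, with at most 9 reads ending at one position before the last one of the table, which 11 reads covered in WT and 9 in Dnmt2 KO.

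The rest of tRNA-Phe held few reads. A 5′ fragment spanned about the first 13 positions, with 16, 11, 9 and 15 reads at position 13 and 10, 7, 3 and 10 at position 14. Beside peaks of 143, 37, 133 and 32 reads in the same order, it weighed more in the libraries numbered 2. Between positions 26 and 37 the depth was 0 to 7 reads, and 4 positions of Dnmt2 KO replicate 2 had none. Over the last part of the tRNA the libraries numbered 1 and 2 differed more than the genotypes. Mean depth at positions 43 to 54 was 131 and 28.5 reads in WT, against 124.5 and 27.1 in Dnmt2 KO, whereas at positions 60 to 69 it was 20.9 and 16.2, and 18.3 and 15.7. The ratio of the second window to the first was therefore 0.159 and 0.147 in the 2 libraries numbered 1 and 0.568 and 0.580 in those numbered 2. A split by number in this ratio was not particular to tRNA-Phe. It was also seen in SeC, with 0.137 and 0.154 against 0.612 and 0.789. In Arg it ran the other way, with 0.321 and 0.429 against 0.180 and 0.249. What a replicate number marks is not given in the labels.

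tRNA-Trp was covered in 2 blocks, and which of them was higher differed between the libraries. The first was an internal block much like that of tRNA-Phe, entered at positions 40 and 43, with 24 and 30 reads before it at position 39 in WT and 12 and 23 in Dnmt2 KO. In 3 libraries it ended at positions 54 and 55, with depth going from 176 reads at position 54 to 44 at position 56 in WT replicate 1, from 160 to 48 in the other WT library and from 54 to 21 in Dnmt2 KO replicate 1. Dnmt2 KO replicate 2 had no net end there, and its depth rose from 83 to 110 reads over the same positions. The second was a 3′ block with net starts at positions 58 to 60 in every library, and in Dnmt2 KO replicate 2 also at positions 55 to 57, which ran to the end of the table. In WT the internal block held the peak, at position 52 (189 reads) in replicate 1 and at position 50 (182 reads) in replicate 2. In Dnmt2 KO the 3′ block held it, with 78 reads at positions 60 to 67 in replicate 1 and 248 at position 60 in replicate 2. The 5′ side was nearly empty, with 1 to 2 reads over position 1 in every library and 4.53% to 10.8% of the coverage at positions 1 to 34.

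The starts of tRNA-Trp fragments show the same as shares of the net reads of the family. At position 43 there were 91 and 52 net starts in WT, 37.1% (95% interval 31.1 to 43.5) and 19.6% (15.02 to 24.9) of the net reads, and 19 and 11 in Dnmt2 KO, 14.6% (9.03 to 21.9) and 4.01% (2.02 to 7.07). At position 40 the shares were 22.4% (17.4 to 28.2) and 25.7% (20.5 to 31.4) in WT and 13.1% (7.81 to 20.1) and 13.5% (9.69 to 18.1) in Dnmt2 KO. At position 58, the main start of the 3′ block, they were 13.1% (9.11 to 17.9) and 15.5% (11.3 to 20.4) in WT and 19.2% (12.8 to 27.1) and 27.0% (21.8 to 32.7) in Dnmt2 KO. In read numbers position 58 had 32 and 41 net starts in WT and 25 and 74 in Dnmt2 KO. The count of Dnmt2 KO replicate 1 was thus below both WT counts, although its share was above both WT shares. The WT shares were the higher ones at positions 40 and 43 and the lower ones at position 58, but at each of the 3 positions the interval of at least 1 WT library overlapped that of a Dnmt2 KO library. These values describe the libraries, and no test was made on them. Many reads of the 3′ block reached the last position of the table, which 48 and 66 reads covered in WT and 48 and 115 in Dnmt2 KO. Others ended one position earlier, at position 70, with 30 and 38 net ends in WT and 24 and 104 in Dnmt2 KO, where this was the second largest end of both libraries (18.5% and 37.96% of the net reads).

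tRNA-Tyr differed from the other two in being covered mainly at its 5′ end. Position 1 held 220 and 330 reads in WT, against 118 and 305 in Dnmt2 KO, which is 46.3% (95% interval 41.8 to 50.9), 53.1% (49.1 to 57.1), 49.6% (43.1 to 56.1) and 56.4% (52.1 to 60.6) of the net reads. These fragments began at the first position of the tRNA and most ended together in the D arm region. The largest end was at position 16 in all 4 libraries, with 139 and 213 reads in WT and 74 and 184 in Dnmt2 KO, or 29.3%, 34.3%, 31.1% and 34.01% of the net reads. The second largest end was at position 15 in WT replicate 1 (56 reads) and in Dnmt2 KO replicate 2 (52 reads), at position 54 in WT replicate 2 (96 reads) and at the last position in Dnmt2 KO replicate 1 (31 reads). Depth fell from 249, 379, 124 and 354 reads at position 15 to 54, 98, 31 and 118 at position 17.

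Past the ends at positions 15 and 16, coverage of tRNA-Tyr toward the anticodon was thinner. Mean depth at positions 20 to 30 was 19.5% and 21.5% of that at positions 1 to 15 in WT and 21.8% and 33.3% in Dnmt2 KO. In Dnmt2 KO replicate 2 depth then fell sharply, from 55 reads at position 37 to 15 at position 38. It went from 11 to 19 in the other Dnmt2 KO library, and from 17 to 37 and from 33 to 27 in WT. Depth does not show which of these reads began at position 1. Position 21 alone had 7 and 1 net starts in WT and 4 and 17 in Dnmt2 KO. The 3′ side of tRNA-Tyr was built from several starts that varied among libraries. Position 50 had 61 net starts in WT replicate 1 (12.8% of net reads) and 4 to 14 in the other 3 libraries. At position 42 the libraries numbered 2 had 57 (WT) and 21 (Dnmt2 KO), and those numbered 1 had 1 each. Position 44 gave 23 and 40 net starts in WT and 25 and 37 in Dnmt2 KO, and at position 60 depth was 172 and 109 reads in WT and 91 and 97 in Dnmt2 KO.

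**Figure D2:**
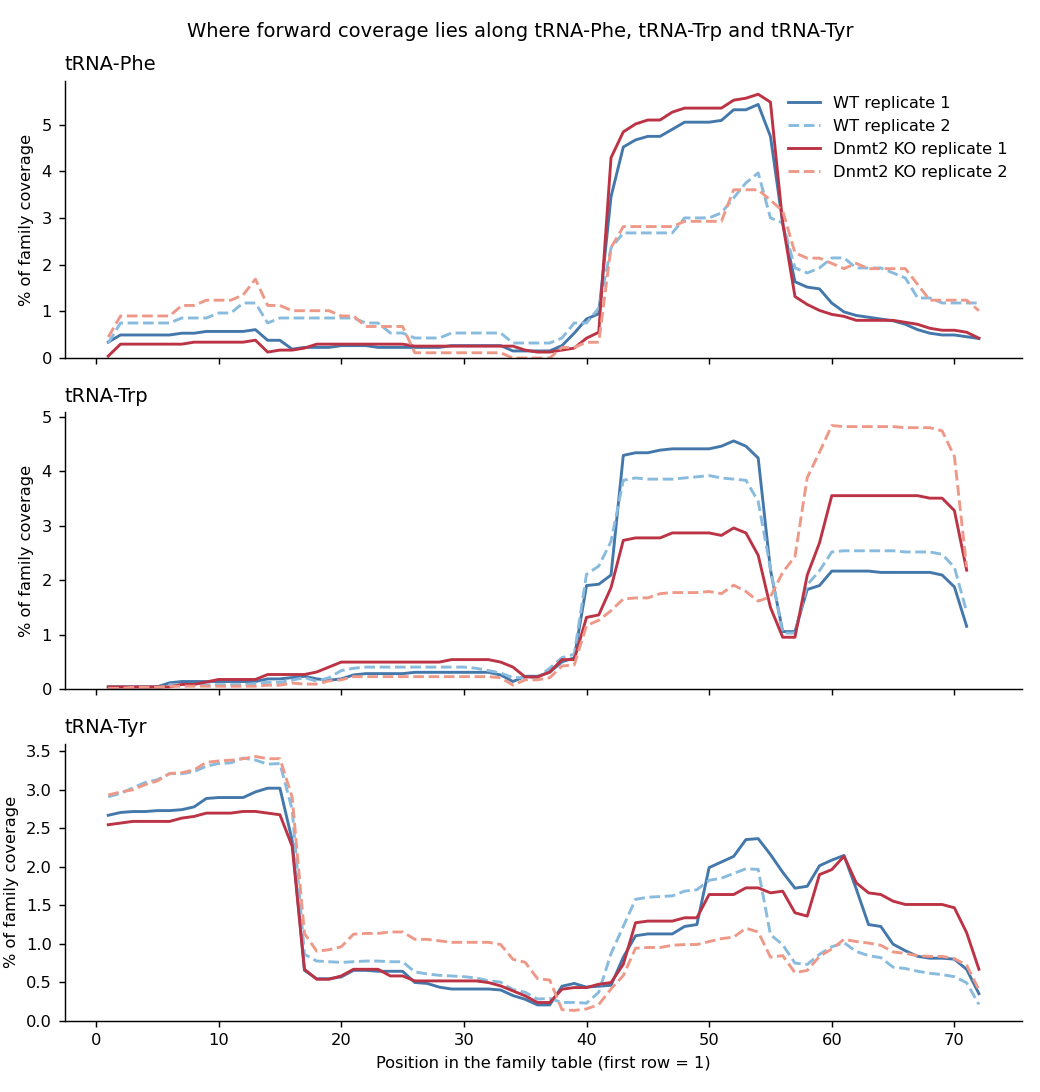
Forward coverage at each position as a percentage of the summed coverage of the family, one line per library, for tRNA-Phe, tRNA-Trp and tRNA-Tyr. tRNA-Phe lies in a block from position 42 to about 55, tRNA-Trp in that block and a 3′ block whose order differs between WT and Dnmt2 KO, and tRNA-Tyr mainly at positions 1 to 16.

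**Figure D3:**
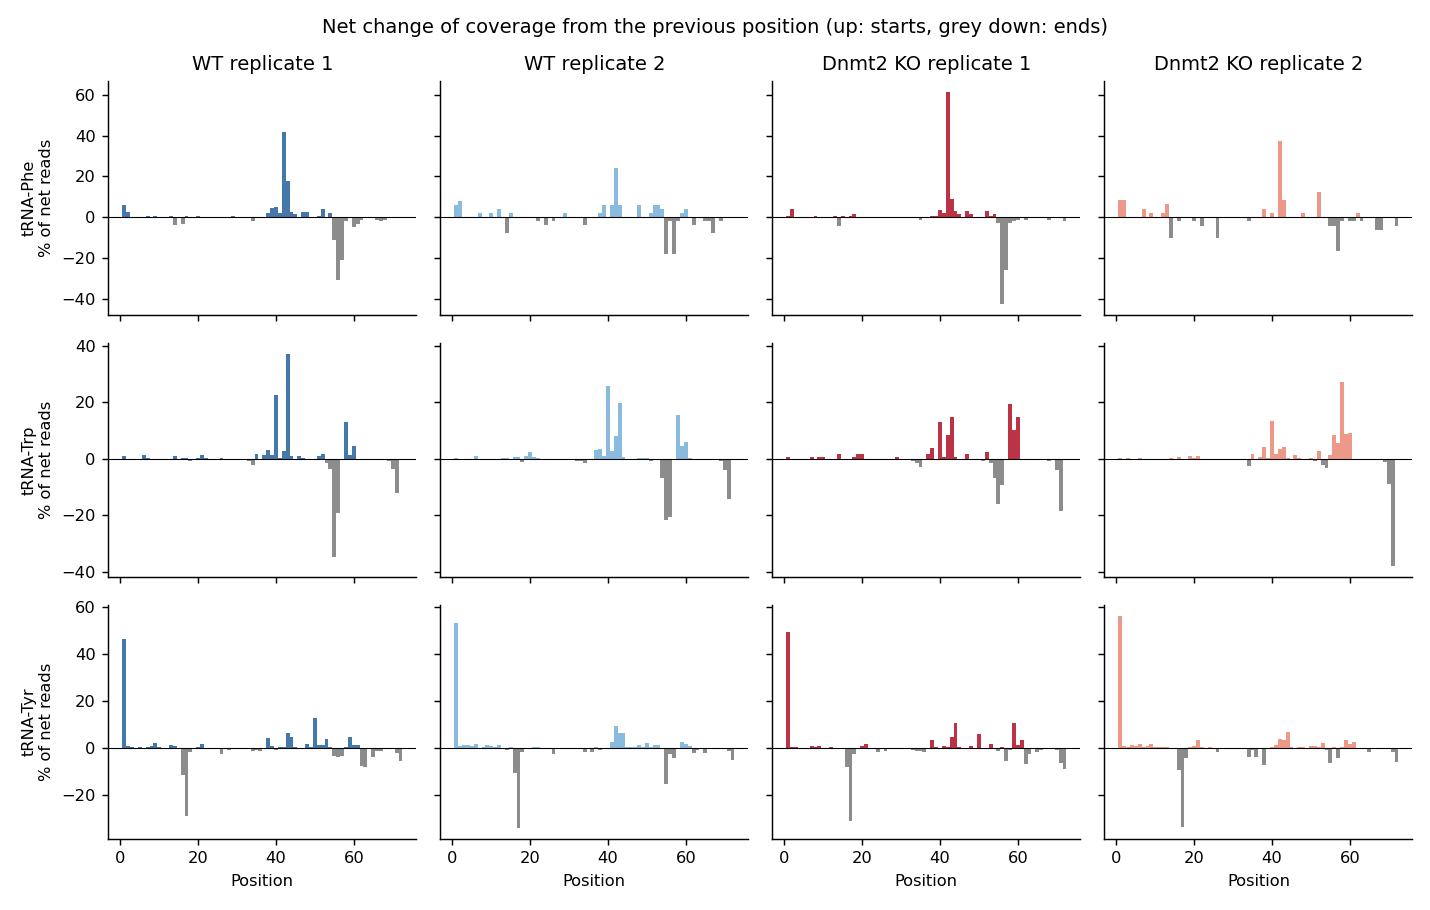
Change of read depth from the previous position, as a percentage of the net reads of the family in that library. Coloured bars upward are net starts and grey bars downward, drawn at the first position after the end, are net ends. The largest start is position 42 in tRNA-Phe and position 1 in tRNA-Tyr in all 4 libraries, and in tRNA-Trp it is position 43 or 40 in WT and position 58 in both Dnmt2 KO libraries.

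The shape of tRNA-Phe coverage over positions 1 to 70, averaged over libraries, was most like that of tRNA-Thr (Pearson r = 0.951 over 70 positions) and tRNA-Arg (r = 0.886). tRNA-Trp was most like tRNA-Asp (r = 0.903) and then tRNA-Phe (r = 0.725), and tRNA-Tyr most like tRNA-Ser (r = 0.926) and tRNA-Leu (r = 0.854). Between tRNA-Tyr and the other two the correlation was 0.0400 with tRNA-Phe and −0.216 with tRNA-Trp. Neighbouring positions share reads and all families come from the same 4 libraries, so these coefficients describe shapes only.

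The first comparison of genotypes concerned the amount of coverage of these tRNAs in each genotype. tRNA-Phe had 0.0173 and 0.0126 deposited units of summed coverage in WT and 0.0309 and 0.0249 in Dnmt2 KO, so that the lower Dnmt2 KO library stood above the higher WT library. tRNA-Trp had 0.0272 and 0.0627 units in WT and 0.0288 and 0.144 in Dnmt2 KO, and tRNA-Tyr 0.0541 and 0.153, and 0.0608 and 0.291, and in both of these the genotypes overlapped. Such an order, Dnmt2 KO above WT without overlap, was seen in 21.7% of the 23 families. The Dnmt2 KO to WT ratio among libraries numbered 1 and 2 was 1.79 and 1.98 for tRNA-Phe, 1.06 and 2.29 for tRNA-Trp and 1.12 and 1.90 for tRNA-Tyr. As a percentage of all tRNA coverage, which does not depend on the unexplained constant of each library, tRNA-Phe was at 0.0197% and 0.00878% in WT and 0.0282% and 0.0131% in Dnmt2 KO, so that the genotypes overlapped, with ratios of 1.43 and 1.49 within the numbers.

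None of the 3 family totals passed the test. With limma on log2(total + 0.001), fitted over all 23 families, 0 families were called (0% of those tested, and 0 at an unadjusted p under 0.05). The log2 difference, Dnmt2 KO minus WT, was 0.87 for tRNA-Phe (SE 0.69, 95% interval −0.84 to 2.57), 0.63 for tRNA-Trp (SE 1.01, −1.86 to 3.12) and 0.55 for tRNA-Tyr (SE 1.04, −2.01 to 3.10), each with a limma adjusted p = 0.973. Net reads, which do not grow with fragment length, gave 0.93, 0.59 and 0.43, each with a limma adjusted p = 0.969, and likewise 0 of 23 families called. The median over all families was 0.47 for totals, and with libraries rescaled to one median family the 3 estimates were 0.42, 0.16 and 0.071. Without Dnmt2 KO replicate 2 the difference of totals was −0.51 for tRNA-Trp and −0.58 for tRNA-Tyr, and without WT replicate 1 it was 1.08, 0.044 and −0.20 for the 3 families in turn. With 2 against 2 libraries 0.333 is the smallest two-sided p of an exact permutation test, and none is given for single values.

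Read numbers were also set against all net tRNA reads of the library, and the genotypes then overlapped in all 3 families. Per 100000 net reads, tRNA-Phe gave 36.5 (95% interval 31.0 to 42.6) and 14.3 (10.6 to 18.9) in WT and 52.2 (44.01 to 61.5) and 21.0 (15.5 to 27.9) in Dnmt2 KO. tRNA-Trp gave 56.6 and 75.9, and 47.5 and 120, and tRNA-Tyr 110 and 178, and 86.9 and 237. tRNA-Phe was higher in Dnmt2 KO than in WT within both replicate numbers, whereas for tRNA-Trp and tRNA-Tyr the Dnmt2 KO library was lower than WT among those numbered 1 and higher among those numbered 2.

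The second comparison asked from which side of the tRNA the coverage came. From position 49 to the end lay 59.2% and 60.2% of tRNA-Trp coverage in WT and 66.0% and 79.8% in Dnmt2 KO, so that both Dnmt2 KO libraries were above both WT libraries. tRNA-Phe had 52.8% and 52.7%, and 53.99% and 53.8%, also without overlap but with about 1 percentage point between the genotypes. tRNA-Tyr had 36.4% and 24.8%, and 37.8% and 21.6%, and overlapped. Dnmt2 KO above WT without overlap was seen in 26.1% of all families for this share, and the opposite order in 8.7%. With limma on the arcsine of the square root of the share, a scale that needs no pseudocount, 0 of 23 families were called (0%, and 0 at an unadjusted p under 0.05). The difference on that scale was 0.144 for tRNA-Trp (SE 0.0649, 95% interval −0.0544 to 0.342, limma adjusted p = 0.594), 0.0113 for tRNA-Phe (limma adjusted p = 0.880) and −0.0114 for tRNA-Tyr (limma adjusted p = 0.934). That of tRNA-Trp was above 0 under each alternative and ranged from 0.0654, when Dnmt2 KO replicate 2 was left out, to 0.222, when Dnmt2 KO replicate 1 was, on this scale and these positions. The estimate of tRNA-Tyr turned to 0.0518 without WT replicate 1 and to 0.0782 without Dnmt2 KO replicate 2.

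The balance of the 2 blocks separated the tRNA-Trp libraries further. Mean depth at positions 43 to 54 was 182 and 178 reads in WT and 61.6 and 89.6 in Dnmt2 KO, and at positions 60 to 69 it was 89.2 and 117 reads, and 77.8 and 246. The ratio of the 3′ to the internal block was thus 0.489 and 0.659 in WT and 1.26 and 2.75 in Dnmt2 KO, a Dnmt2 KO to WT fold of 2.58 among libraries numbered 1 and 4.17 among those numbered 2. The 2 Dnmt2 KO libraries did not reach the higher ratio alike. In reads, the 3′ block of Dnmt2 KO replicate 1 was below both WT libraries and that of replicate 2 above both. These depths are not scaled to the library, which had 432927 and 349303 net tRNA reads in WT and 273878 and 228506 in Dnmt2 KO. tRNA-Tyr had ratios of 0.821 and 0.454, and 1.19 and 0.935, with folds of 1.45 and 2.06, and also did not overlap, while tRNA-Phe overlapped, with folds of 0.924 and 1.02. Over the 22 families with a mean of at least 3 reads in the internal window, 27.3% had both Dnmt2 KO libraries above both WT libraries and 4.55% below. By the geometric mean of the 2 folds tRNA-Trp stood first (3.28), before tRNA-Pro (2.70) and tRNA-Tyr (1.73). These windows were set after seeing the coverage, so the ratios are a description without a test.

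**Figure D4:**
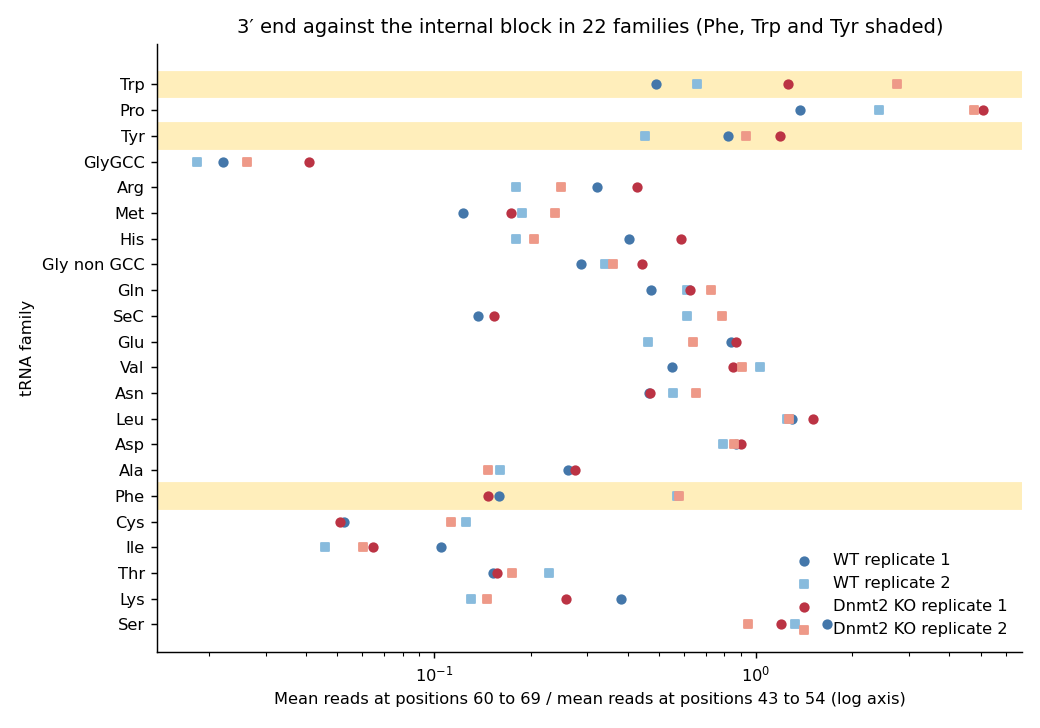
Ratio of mean reads at positions 60 to 69 to mean reads at positions 43 to 54 (log axis) in 22 families, one point per library, ordered by the geometric mean of the Dnmt2 KO to WT folds within replicate numbers. tRNA-Trp (0.489 and 0.659 in WT, 1.26 and 2.75 in Dnmt2 KO) is at the top, and tRNA-Phe splits by replicate number, with 0.159 and 0.147 against 0.568 and 0.580. Some other families split by replicate number as well.

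The 5′ side of the tRNAs gave no difference beyond the spread. Positions 1 to 34 held 12.04% and 24.5% of tRNA-Phe coverage in WT and 9.26% and 25.7% in Dnmt2 KO, 6.80% and 7.50%, and 10.8% and 4.53% of tRNA-Trp, and 54.1% and 63.0%, and 51.9% and 70.1% of tRNA-Tyr. All 3 overlapped, while 4.35% of families had Dnmt2 KO above WT without overlap and 13% below, and with limma 0 of 23 families were called (0%, and 0 at an unadjusted p under 0.05). The differences on the arcsine scale were −0.0160 (95% interval −0.289 to 0.257), 0.00365 (−0.170 to 0.177) and 0.0267 (−0.199 to 0.252), with a limma adjusted p = 0.958 for each. Each of them changed sign when 1 library was left out. Mean depth of tRNA-Tyr at positions 20 to 30 was 19.5% and 21.5% of that at positions 1 to 15 in WT. In Dnmt2 KO it was 21.8% and 33.3%, without overlap, an order seen upward in 10% and downward in 15% of 20 families. The higher WT and the lower Dnmt2 KO value lay closer together than the 2 Dnmt2 KO values did. Both windows were set after seeing the coverage. Positions 20 to 30 also hold reads that started inside the tRNA, so this is not a measure of longer 5′ fragments alone.

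Around the anticodon, at positions 32 to 38, tRNA-Phe had 1.41% and 2.79% of its coverage in WT and 1.36% and 0.450% in Dnmt2 KO. The higher Dnmt2 KO value was below the lower WT value, as in 34.8% of all families (the reverse held in 4.35%), and the depth there was 0 to 7 reads. tRNA-Trp had 2.03% and 2.26%, and 2.78% and 1.52%, and tRNA-Tyr 2.28% and 2.61%, and 2.55% and 4.79%. With limma 0 of 23 families were called for this share (0%, and 0 at an unadjusted p under 0.05). The differences on the arcsine scale were −0.0513 for tRNA-Phe (SE 0.0273, 95% interval −0.127 to 0.0240, limma adjusted p = 0.704), −0.00131 for tRNA-Trp (limma adjusted p = 0.997) and 0.0335 for tRNA-Tyr (SE 0.0247, limma adjusted p = 0.704). Leaving out Dnmt2 KO replicate 2 brought tRNA-Tyr to 0.0033 and tRNA-Phe to −0.0264, and leaving out WT replicate 2 brought tRNA-Phe to −0.0268.

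Single positions were compared last, on log2(value + 1e-04). With limma 0 of the 1656 positions with coverage were called (0%, and 0 at an unadjusted p under 0.05). The limma adjusted p was at least 0.999 at every position of the 3 families. The median log2 difference was 0.52 over the 72 positions of tRNA-Phe, 0.28 over the 71 of tRNA-Trp and 0.51 over the 72 of tRNA-Tyr, against 0.44 over all positions. Dnmt2 KO was above WT without overlap at 19 positions of tRNA-Phe (26.4%), namely 24, 25 and 55 to 71, at 3 of tRNA-Tyr (4.17%), namely 69, 70 and 72, and at 0 of tRNA-Trp, where the share over all positions was 17.1%. It was below at position 39 of tRNA-Phe alone, which had 14 and 7 reads in WT and 5 and 2 in Dnmt2 KO, and over all positions at 0.302%. At positions 60 to 69 of tRNA-Phe the order with Dnmt2 KO above WT held in deposited units and not in reads. Mean depth there was 20.9 and 16.2 reads in WT and 18.3 and 15.7 in Dnmt2 KO. One read covers many neighbouring positions, and these counts are a description.

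Among the positions named by rule, the largest estimate of tRNA-Phe without overlap was at position 55, with 125 and 28 reads in WT and 129 and 30 in Dnmt2 KO. In deposited units these were 0.000821 and 0.000378, and 0.00169 and 0.000841, a log2 difference of 0.97 (SE 0.75). It was 0.50 without WT replicate 2, 0.50 without Dnmt2 KO replicate 1 and 0.17 with each family rescaled to one total. The difference in units beside nearly equal read numbers follows the deposited worth of 1 read, which was 6.57e-06 and 1.35e-05 units in WT and 1.31e-05 and 2.80e-05 in Dnmt2 KO. In tRNA-Tyr it was position 72, the last of the table, with 29 and 24 reads, and 31 and 42, and a log2 difference of 1.20 (SE 0.77), which was 0.53 without Dnmt2 KO replicate 2. At position 60 of tRNA-Trp, the peak in Dnmt2 KO, 90 and 117 reads in WT stood against 78 and 248 in Dnmt2 KO (log2 difference 1.39, SE 1.09), and without Dnmt2 KO replicate 2 the difference was 0.061. At position 52, the peak of WT replicate 1, there were 189 and 179 reads, and 65 and 98, with a log2 difference of −0.16 (SE 0.84).

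Other families give the setting for these values. Of the 3 families with Dnmt2 substrates (Asp, GlyGCC and Val) 0 rose and 0 fell in total coverage, with a median log2 difference of 0.42. The 4 queuosine families (Tyr, Asp, Asn and His) also had 0 called in either direction and a median of 0.57. The 9 families of low coverage, with a mean of fewer than 1000 reads at the highest position (Asn, Ile, Met, Phe, SeC, Sup, Thr, Trp and Tyr), had 0 called, 8 estimates above 0 and a median of 0.55. Over all 23 families 21 estimates were above 0. For the share from position 49 to the end, the medians on the arcsine scale were 0.0579 in the substrate families, 0.0346 in the queuosine families and 0.0426 in those of low coverage, against 0.00452 over all families. The median of tRNA-Phe, tRNA-Trp and tRNA-Tyr was 0.0113. For this share 0 families were called in each of these lists, so the medians are a description.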

How the data were processed

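Small RNA libraries of total RNA treated with T4 PNK were made with a size-selecting kit, per the labels' protocols. The tools CASAVA 1.8.3 and Bowtie come from the submitters' processing notes. Not given in the sources used here were the genome build, tRNA reference, alignment settings and treatment of reads matching several tRNAs, so short reads shared between families could add to either.

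The authors deposited signal, one coverage value per position, library and strand, per the file headers, scaled by one constant per library that no source explains. All values above 0 (100%, within 0.01) were whole multiples of the smallest positive value of the library. Rows are labelled from 0 and counted here from 1. The glycine table equalled the sum of its parts at 72 of 73 positions (within 1e-06 units). It exceeded it at position 71, just past the 70 rows of GlyGCC, by 0.000105 to 0.000149 units, so that table lacks a covered 3′ position, and others may too. The glycine table was left out, which leaves 23 families.

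Totals (pseudocount 0.001), net reads (0.5 reads added), shares (arcsine of the square root) and positions (1e-04) were fitted in limma 3.58.1 (R 4.3.3), with genotype as the sole term, two-sided, Benjamini-Hochberg adjusted over all families or positions, at a threshold of 0.05. A fold on these log2 scales understates changes of low values. Count models were not used, because one read counts at every position it spans. The fit was tested on simulated data whose libraries varied less than these, so that test does not cover the spread seen here. Members and lists were chosen with earlier results of these data known. Named are the 3 families in every comparison, each library's peak, its 2 largest starts and ends, the largest estimate without overlap, and the 2 families most alike in shape. Alternatives were each library left out, the replicate number as a block, 2 rescalings, other pseudocounts, windows, scales and filters, and row labels as positions.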

Additional observations from a re-analysis of the deposited data

How the results depend on the processing

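Of 254 estimates for the 3 families and their named positions recomputed under an alternative, 220 kept their direction and side of the threshold, 34 turned sign and 0 newly passed. What caused these turns was not tested. The replicate block and the filters on read depth leave each estimate as it was by design. Under those settings no sign could turn, and only the side of the threshold could change. Leaving out 1 library gave totals of 0.65 to 1.08 (log2) for Phe, −0.51 to 1.77 for Trp and −0.58 to 1.67 for Tyr, and net reads of −0.49 to 1.68 for Trp and −0.71 to 1.57 for Tyr. On the arcsine scale it gave a 5′ share of −0.127 to 0.0950 for Phe, −0.0562 to 0.0635 for Trp and −0.0673 to 0.121 for Tyr, a loop share of −0.0761 to −0.0264 for Phe, −0.0232 to 0.0206 for Trp and 0.0033 to 0.0637 for Tyr, and a share from position 49 of −0.101 to 0.0782 for Tyr and 0.0654 to 0.222 for Trp. At single positions it gave 0.50 to 1.44 (log2) at Phe position 55, 0.53 to 1.86 at Tyr position 72, −0.98 to 0.55 at Trp position 50, −0.95 to 0.63 at Trp position 52, and −0.77 to 1.75, −0.78 to 1.75 and −0.79 to 1.74 at Tyr positions 12, 13 and 14.

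With log2 odds, the 5′ share of Trp turned to −0.024. With the last 20 positions, the 3′ share of Tyr turned to 0.0138, and with the last 14 positions, a window chosen after seeing the data, those of Tyr and Phe turned to 0.0512 and −0.000566, while Trp stood at 0.242 (limma adjusted p = 0.681). With each family rescaled to one total, Phe position 54 was at −0.035 and Tyr positions 12, 13 and 14 at −0.047, −0.053 and −0.065, while Trp position 60 was at 0.79.

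The number of families or positions past the threshold was 0 throughout, except that leaving out 1 library gave 0 to 1 for the 3′ share, with Sup called without WT replicate 1 (limma adjusted p = 0.0371). With the replicate number as a block it was 2 for totals (Gln and His) and 1 for the loop share (Sup), all named after their values were seen. The block gave Phe, Trp and Tyr a limma adjusted p of 0.110, 0.266 and 0.307 for totals and left each without a call. For the loop share of Phe the limma adjusted p was 0.0952. With the block, an unadjusted limma p under 0.05 was seen in 6 of 23 families for totals and 6 for net reads. It was seen in 1, 2 and 0 of 23 for the 5′, loop and 3′ shares, and at 216 of 1656 positions. Same-numbered libraries deviated together (r = 0.862 over 23 family totals). The authors also deposited the WT and Dnmt2 KO libraries of one number together, but no label ties the numbers to a batch or litter. The main fits did not use this pairing. With the block, the SE of totals was 0.34 for Phe, 0.36 for Trp and 0.35 for Tyr. Depth limits Phe most, at 48 to 158 net reads.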

Other observations

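The reverse strand of the 3 families, which no comparison used, held almost nothing. At its highest position tRNA-Tyr had 6 and 1 reverse reads in WT, against 0 and 5 in Dnmt2 KO, tRNA-Trp 2 and 0, and 2 and 0, and tRNA-Phe 0 and 1, and 0 and 1. Reverse coverage was at most 3.11% of forward coverage, in tRNA-Phe of WT replicate 2. The genotypes overlapped in all 3 families.

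Over 71 positions, the shape of tRNA-Trp coverage gave r = 0.984 between the WT libraries and 0.900 between the Dnmt2 KO libraries. Between genotypes r was lower, at 0.531 to 0.896. The highest of these, WT replicate 2 with Dnmt2 KO replicate 1, was close to that between the Dnmt2 KO libraries. Families other than tRNA-Phe, tRNA-Trp and tRNA-Tyr were not compared in this way. For tRNA-Phe the highest coefficients joined the libraries of the same number, 0.995 for number 1 and 0.969 for number 2, against 0.920 between the WT libraries and 0.860 between the Dnmt2 KO libraries. For tRNA-Tyr the same-numbered libraries gave 0.957 and 0.936, and the same-genotype libraries 0.906 and 0.826. Neighbouring positions share reads, so these are descriptions without a test.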
